A study of Arabidopsis thaliana with 16 samples.

Results

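The GH3 genes that encode auxin-conjugating enzymes were followed through the ethylene response of Arabidopsis thaliana roots. The genes were chosen by locus, as GH3.1 (AT2G14960), GH3.2 (AT4G37390), GH3.3 (AT2G23170), GH3.4 (AT1G59500), GH3.5 (AT4G27260), GH3.6 (AT5G54510) and GH3.17 (AT1G28130), which are 7 of the 33518 loci in the deposited counts. When seedlings carried functional EIN3 and EIL1, ethylene raised GH3.2, GH3.3, GH3.5 and GH3.6 by between 1.77-fold and 4.54-fold and lowered GH3.17 by 3.39-fold in the wild type and 4.61-fold in rhd6rsl1. In seedlings that lacked EIN3 and EIL1, GH3.5 in the quadruple mutant was the only one of these genes called, at a log2 fold change of 0.46, and that call was lost in 3 of the alternative fits while GH3.17, at 0.38, was called there in others. GH3.1 lay at 9.29 CPM (scaled reads) or less in every library, and GH3.4 was hardly detected.

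Roots were compared across 4 genotypes, namely the wild type Col-0, the double mutants ein3eil1 and rhd6rsl1, and the quadruple mutant ein3eil1rhd6rsl1, each left untreated or given ethylene at 10 ppm for 4 h. Most of the transcriptional response to ethylene runs through the factors EIN3 and EIL1, and root hair cells need the bHLH factors RHD6 and RSL1 to start a hair. All seedlings were grown on vertical MS plates for 6 d, no transgene is named in the labels, and the mutant alleles are not named there either. Each of the 8 groups held 2 biological replicates, which gave 16 polyA RNA libraries.

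GH3 enzymes join the auxin indole-3-acetic acid (IAA) to amino acids. The aspartate and glutamate conjugates are inactive as auxin and lead towards breakdown, so the enzymes lower the pool of free hormone. Several GH3 genes are themselves switched on by auxin through ARF transcription factors, which makes them a feedback brake on the hormone, and they are widely used as reporters of auxin response. Ethylene raises auxin synthesis in the root tip, and its inhibition of root growth depends in large part on auxin.

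The library totals ran from 33.0M to 45.0M assigned reads, and replicates of a group correlated at r of 0.984 to 0.992 across loci. EIN3 reads lay at 28.7 to 41.6 CPM (reads of a locus scaled to a fixed library size, here by TMM) in the 8 libraries labelled with its mutation and at 148 to 185 CPM in the other 8, and EIL1 at no more than 29.7 against at least 61.3 CPM. RHD6, at 6.48 to 15.6 against 14.2 to 24.2 CPM, and RSL1, at 1.24 to 2.04 against 1.09 to 5.93 CPM, overlapped between libraries with and without the mutation. Such reads show transcription of the locus and do not tell whether its product works. The 5 summed root hair markers (COBL9, EXPA7, EXPA18, RHD2 and PRP3) lay at 30.3 to 137 CPM in the 8 libraries that carried rhd6rsl1 and at 519 to 1204 CPM in the other 8, with 1 marker at 0 in 1 library. The 5 summed root markers lay at 4318 CPM or more everywhere, nearly all of it from PYK10. Summed photosynthesis markers, 11 genes of the shoot, lay at 118 to 247 CPM in 14 libraries but at 733 CPM in replicate 1 of ethylene-treated Col-0 and at 1287 CPM in replicate 1 of the ethylene-treated quadruple mutant. In bulk roots, fewer cells of a type and less RNA per cell cannot be told apart.

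The codes of the deposited files carry the letter S or Z, which the sources used here do not explain. Untreated rhd6rsl1, the untreated quadruple mutant and ethylene-treated Col-0 and ein3eil1 carry S, and the other 4 groups carry Z. Within 1 genotype, therefore, ethylene and the letter cannot be told apart. An additive effect of the letter cancels in the difference between the ethylene responses of 2 genotypes with the same letters (Col-0 and ein3eil1, or rhd6rsl1 and the quadruple mutant), and in an ethylene or genotype effect averaged over Col-0 and rhd6rsl1 or over ein3eil1 and the quadruple mutant. Such balanced values are given for the GH3 genes and for some of the other genes.

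The 7 genes lie on chromosomes 1, 2, 4 and 5, and the RefSeq annotation of TAIR10.1 gives them 3 exons each, or 4 in GH3.17. Their coding sequences measure 1773 to 1839 bases, including the stop codon. GH3.2 and GH3.4 are the closest pair, with 90.9% identity over their aligned coding bases, followed by GH3.5 and GH3.6 at 84.1% and GH3.2 and GH3.3 at 81.4%. GH3.17 was 63.4 to 64.9% identical to each of the others. No spliced transcript shared a stretch of 100 bases, the length of a single read, with another member, and the longest exact run, of 65 bases, joined GH3.2 and GH3.4. How the authors' counting treated reads with several matches is not stated in the sources used here.

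The 250 bases upstream of the annotated start are shown for the 4 genes that rose and for GH3.17, which fell, because the sequence TGTCTC, the auxin response element (AuxRE) bound by ARF proteins, stands in some of them and not in others. They are read 5′ to 3′ on the strand of the gene from the TAIR10.1 genome, and capitals mark TGTCTC on either strand.
GH3.2 (chr4:17579368-17579617, plus strand): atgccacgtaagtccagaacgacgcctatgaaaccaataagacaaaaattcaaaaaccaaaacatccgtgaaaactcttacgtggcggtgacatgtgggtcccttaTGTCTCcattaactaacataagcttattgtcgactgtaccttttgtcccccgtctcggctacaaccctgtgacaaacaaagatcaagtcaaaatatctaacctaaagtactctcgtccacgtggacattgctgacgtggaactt
GH3.3 (chr2:9866563-9866812, minus strand): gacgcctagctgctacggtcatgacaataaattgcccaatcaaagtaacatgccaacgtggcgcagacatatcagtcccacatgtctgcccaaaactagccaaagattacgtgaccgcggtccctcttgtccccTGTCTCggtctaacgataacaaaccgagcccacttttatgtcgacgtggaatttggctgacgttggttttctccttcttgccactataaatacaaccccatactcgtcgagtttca
GH3.5 (chr4:13653329-13653578, plus strand): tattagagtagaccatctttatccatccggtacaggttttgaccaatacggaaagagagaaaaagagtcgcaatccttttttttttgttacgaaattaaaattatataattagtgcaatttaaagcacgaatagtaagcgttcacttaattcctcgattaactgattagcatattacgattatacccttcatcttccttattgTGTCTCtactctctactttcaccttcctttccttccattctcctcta
GH3.6 (chr5:22133689-22133938, minus strand): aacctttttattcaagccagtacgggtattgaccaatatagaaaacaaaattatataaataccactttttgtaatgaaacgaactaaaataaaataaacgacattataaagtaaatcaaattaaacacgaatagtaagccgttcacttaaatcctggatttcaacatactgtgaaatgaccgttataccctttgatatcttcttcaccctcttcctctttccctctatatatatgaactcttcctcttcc
GH3.17 (chr1:9824919-9825168, plus strand): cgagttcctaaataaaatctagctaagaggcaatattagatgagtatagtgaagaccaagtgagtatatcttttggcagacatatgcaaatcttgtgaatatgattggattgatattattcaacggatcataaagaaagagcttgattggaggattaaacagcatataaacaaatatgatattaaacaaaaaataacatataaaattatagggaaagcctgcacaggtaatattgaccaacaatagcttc

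Counted from the annotated start, with -1 as the last base before it, the leftmost base of TGTCTC lay at -144 in GH3.2, -116 in GH3.3 and -47 in GH3.5. It was not found in this window of GH3.1, GH3.4, GH3.6 or GH3.17, and 10.9% of the 27443 upstream windows of protein-coding genes held it. In the 1000 bases upstream it was found in 5 of the 7 genes, all but GH3.6 and GH3.17, against 39.6% of all such windows. The variant TGTCGG was in 0 of the 7 windows of 250 bases and in 4.16% of all windows. ATGTA, the core of the EIN3 site, was in 0 of the 7 windows of 250 bases, against 52.0% of all, and in 7 of 7 of those of 1000 bases, against 93.7% of all. CACGTG, the G-box, was in the 250 bases of GH3.2 and of no other member, against 6.49% of all. Motifs were searched on both strands, TGTCTC shared 0 bases with another searched motif in these windows, and a match in the letters does not show binding.

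Of the 7 genes, 6 had enough reads to be tested and GH3.4 had not. Ethylene in Col-0 moved all 6, with 4 called higher and 2 called lower at an adjusted p below 0.05 (edgeR), where 13.7% of the 22304 loci tested were called higher and 15.9% lower. The median log2 fold change of the 6 was 1.06, against 0.01 over all loci tested. In rhd6rsl1 the same treatment raised 4 and lowered 1, where 39.5% of loci were called in either direction. In ein3eil1 it moved 0 of 6, where 0.623% of loci were called in either direction, and 2 of the 6, GH3.1 and GH3.2, were below an unadjusted p of 0.05 at 0.019 each. DESeq2 also called 0 there. In the quadruple mutant 1 of 6 was higher and 0 lower, where 11.5% of loci were called higher and 12.4% lower.

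**Figure D1:**
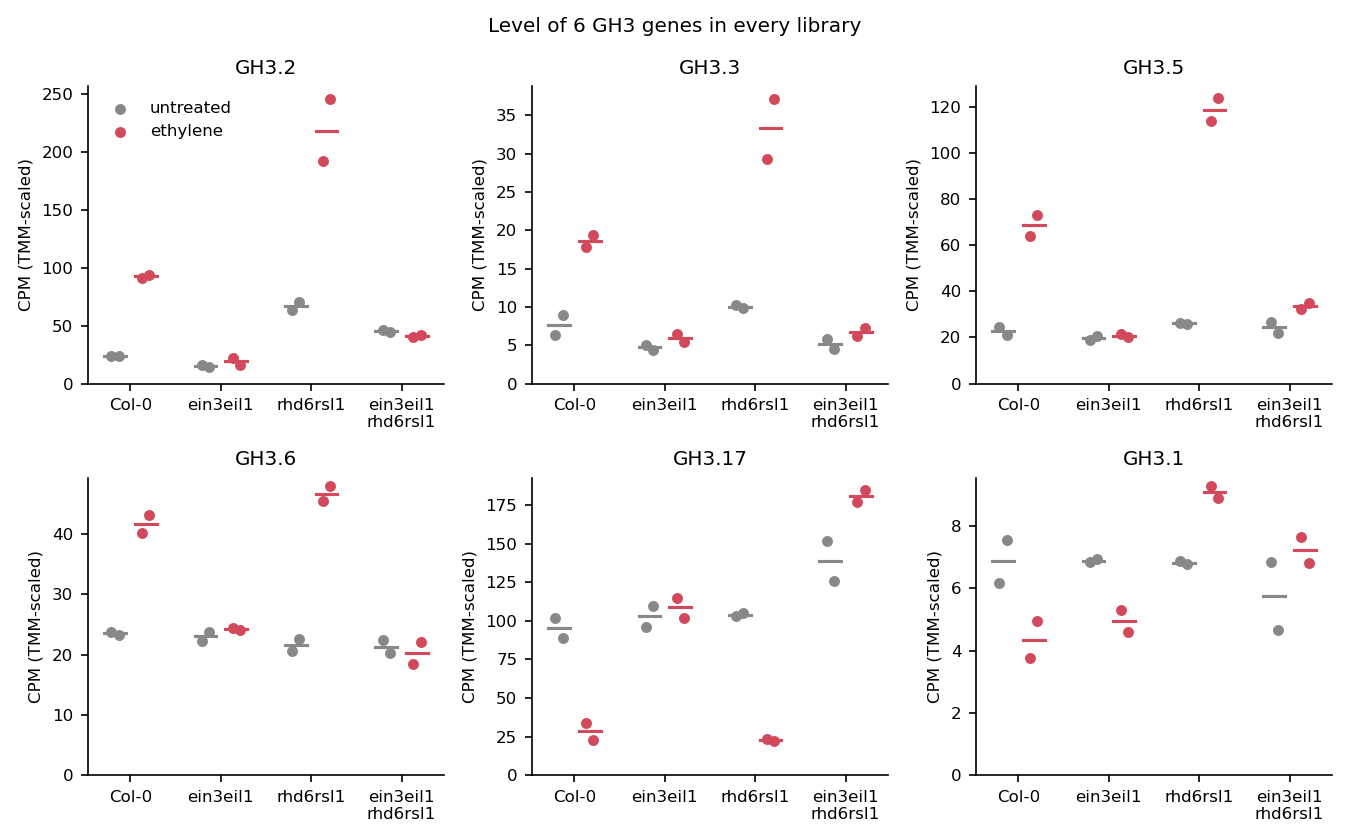
Level of the 6 tested GH3 genes in CPM (TMM-scaled, linear axis from 0) in each of the 16 libraries, with 1 panel per gene, genotypes along the x axis, grey points for untreated and red points for ethylene-treated roots, and a line at the mean of the 2 replicates. GH3.2, GH3.3, GH3.5 and GH3.6 stand high in ethylene-treated Col-0 and rhd6rsl1 and GH3.17 stands low there, which is not seen in the treated groups without EIN3 and EIL1.

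GH3.2, an auxin-induced member known from the dwarf line ydk1-D that overexpresses it, had the largest rise in Col-0. Its libraries read 23.7 and 23.9 CPM untreated and 90.8 and 93.9 CPM after ethylene in Col-0, and 63.3 and 70.0 against 192 and 245 CPM in rhd6rsl1. In ein3eil1 they read 16.1 and 13.9 CPM untreated and 22.3 and 16.2 CPM after ethylene, and in the quadruple mutant 45.9 and 44.3 against 40.1 and 41.7 CPM. Both treated libraries of Col-0 and of rhd6rsl1 therefore stood far above their controls, and within ein3eil1 and the quadruple mutant the treated and untreated libraries stood close together without overlapping. The log2 fold change was 1.95 ± 0.13 (SE) in Col-0 (n = 2 against 2, adjusted p = 6.3e-09 from edgeR) and 1.71 in rhd6rsl1 (adjusted p = 1.4e-08). It was 0.36 in ein3eil1 (95% interval 0.07 to 0.65, adjusted p = 0.24) and -0.14 in the quadruple mutant (-0.41 to 0.13, adjusted p = 0.46). Over the 8 groups, the mean level ran from 218 CPM in ethylene-treated rhd6rsl1 down to 15.0 CPM in untreated ein3eil1, and no neighbouring groups in this order overlapped.

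GH3.3, which has been linked with GH3.5 and GH3.6 to adventitious rooting in the hypocotyl, was the weakest expressed of the 4 that rose. It read 6.28 and 8.91 CPM untreated and 17.8 and 19.4 CPM after ethylene in Col-0, and 10.2 and 9.85 against 29.3 and 37.2 CPM in rhd6rsl1. In ein3eil1 it read 5.08 and 4.34 against 6.50 and 5.46 CPM, and in the quadruple mutant 5.78 and 4.51 against 6.20 and 7.22 CPM. The treated libraries lay above the untreated ones in every genotype, by a wide margin where EIN3 and EIL1 were functional and by a narrow one where they were not. The log2 fold change was 1.30 ± 0.17 in Col-0 (adjusted p = 1.7e-05, edgeR) and 1.73 in rhd6rsl1 (adjusted p = 3.5e-07). In ein3eil1 it was 0.35 (-0.04 to 0.75, adjusted p = 0.41) and in the quadruple mutant 0.38 (-0.00 to 0.77, adjusted p = 0.14).

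GH3.5 encodes an enzyme that acts on salicylic acid as well as on IAA and is known from the dwarf line wes1-D. In Col-0 it read 24.6 and 20.9 CPM untreated and 64.3 and 73.3 CPM after ethylene, and in rhd6rsl1 26.4 and 25.9 against 114 and 124 CPM. In ein3eil1 it read 19.0 and 20.7 against 21.5 and 20.0 CPM, which overlapped, and in the quadruple mutant 26.9 and 21.9 against 32.2 and 35.1 CPM, which did not. Its log2 rise was 1.60 in Col-0 (adjusted p = 9.4e-09, edgeR) and 2.18 in rhd6rsl1 (adjusted p = 1.3e-10). In ein3eil1 the value was 0.06 (-0.18 to 0.30, adjusted p = 0.86). In the quadruple mutant GH3.5 was called higher by 0.46 ± 0.11 on the log2 scale (adjusted p = 0.0068), which was not called when replicate 2 of the untreated or of the treated quadruple mutant was left out (0.31, adjusted p = 0.094, and 0.39, adjusted p = 0.061) or when the 2 groups were fitted alone (0.47, adjusted p = 0.052).

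GH3.6, known from the short-hypocotyl line dfl1-D, rose least of the 4. It read 23.7 and 23.2 CPM untreated and 40.1 and 43.1 CPM after ethylene in Col-0, and 20.5 and 22.6 against 45.4 and 47.9 CPM in rhd6rsl1. The 8 libraries without functional EIN3 and EIL1, treated or not, lay between 18.4 and 24.4 CPM. All 4 treated libraries of Col-0 and rhd6rsl1 thus exceeded each of the other 12. The log2 rise was 0.83 in Col-0 (adjusted p = 4.9e-06, edgeR) and 1.11 in rhd6rsl1 (adjusted p = 1.1e-07). In ein3eil1 the value was 0.07 (-0.14 to 0.28) and in the quadruple mutant -0.07 (-0.28 to 0.14), with adjusted p of 0.79 and 0.63.

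GH3.17, which prefers glutamate as the amino acid and has been tied to control of hypocotyl length, went the other way. It read 102 and 89.2 CPM untreated and 33.7 and 22.8 CPM after ethylene in Col-0, and 103 and 105 against 23.4 and 21.8 CPM in rhd6rsl1. In ein3eil1 it read 96.1 and 110 against 115 and 102 CPM, and in the quadruple mutant 152 and 126 against 177 and 185 CPM. The 4 treated libraries of Col-0 and rhd6rsl1 were the lowest 4 of all 16, and the 2 treated libraries of the quadruple mutant were the highest. The log2 fold change was -1.76 ± 0.14 in Col-0 (adjusted p = 6.8e-08, edgeR) and -2.20 in rhd6rsl1 (adjusted p = 3.6e-09). In ein3eil1 it was 0.08 (-0.21 to 0.37, adjusted p = 0.85), and in the quadruple mutant 0.38 (0.09 to 0.67, adjusted p = 0.052). That last value was called with DESeq2 (adjusted p = 0.019), with RLE size factors and without scaling (0.047 each), without the low count filter (0.0016), with the first transcript model alone (0.04) and without 1 library in 3 cases (0.014 to 0.028). Of the 2 transcript models in the files for this locus, the second held 33.2 to 39.3% of the reads in every library, so the share of the models moved little while the total fell.

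In untreated roots the levels of GH3.1 lay within the range of GH3.3, and GH3.4 was close to absent from the reads. GH3.1 read 6.18 and 7.56 CPM untreated and 3.75 and 4.94 CPM after ethylene in Col-0, and 6.87 and 6.79 against 9.29 and 8.90 CPM in rhd6rsl1. Its fall of 0.66 on the log2 scale in Col-0 was called (adjusted p = 0.012, edgeR) but not without replicate 1 of treated Col-0 (-0.46, adjusted p = 0.14) or replicate 2 of untreated Col-0 (-0.50, adjusted p = 0.12). In ein3eil1 GH3.1 read 6.84 and 6.94 against 5.31 and 4.59 CPM, at -0.48 (adjusted p = 0.24), and in the quadruple mutant 6.86 and 4.65 against 7.65 and 6.81 CPM, at 0.33 (adjusted p = 0.2), which was called without replicate 1 of the untreated quadruple mutant (0.61, adjusted p = 0.031). In rhd6rsl1 the value was 0.41 (0.04 to 0.79, adjusted p = 0.075), and it was called without scaling (0.46, adjusted p = 0.048), without the low count filter (0.45, 0.029), with the groups fitted alone (0.43, 0.022) and without 1 library in 4 cases (0.42 to 0.45, adjusted p of 0.033 to 0.041). The 8 libraries with the letter S held 3.75 to 6.87 CPM of GH3.1 and the 8 with the letter Z held 6.18 to 9.29 CPM, and the ethylene effect averaged over both genotypes, in which the letter cancels, was -0.12 (-0.39 to 0.15, adjusted p = 0.48). GH3.4 had 8 reads in all, spread over 4 of the 16 libraries with at most 4 in any of them, and the other 12 held 0, which allows a level of up to 0.0661 to 0.0912 CPM in each (3 reads, counting error only).

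**Figure D2:**
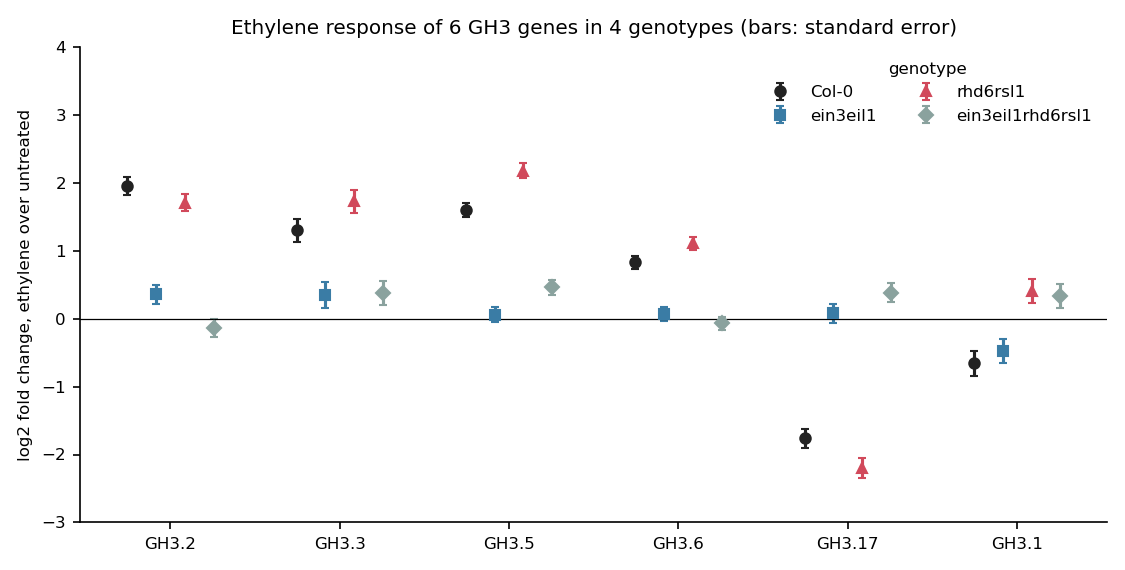
Log2 fold change of ethylene-treated over untreated roots for 6 GH3 genes in each of 4 genotypes, with bars for the standard error (n = 2 against 2 libraries, edgeR). The values of Col-0 and rhd6rsl1 lie between 0.83 and 2.18 for the 4 genes that rose and at -1.76 and -2.20 for GH3.17, while those of ein3eil1 and the quadruple mutant lie between -0.14 and 0.46 for these 5 genes.

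Averaged over Col-0 and rhd6rsl1, which balances the letter, ethylene raised GH3.2 by 1.83 ± 0.092, GH3.3 by 1.51 ± 0.12, GH3.5 by 1.89 ± 0.079 and GH3.6 by 0.97 ± 0.069 on the log2 scale. It lowered GH3.17, at -1.98 ± 0.10. The largest adjusted p of these 5 was 1.5e-08 (edgeR), and 4 of 6 genes were thus called higher and 1 lower, where 18.9% of loci were called higher and 22.4% lower. Averaged over ein3eil1 and the quadruple mutant, 0 of 6 were called, where 7.89% of loci were called in either direction. The closest there were GH3.5 at 0.26 (0.09 to 0.43, adjusted p = 0.055) and GH3.3 at 0.37 (0.09 to 0.64, adjusted p = 0.09), and 3 of the 6, these and GH3.17, lay below an unadjusted p of 0.05. DESeq2 called 2 of the 6 in that average.

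The test of whether the ethylene response depended on EIN3 and EIL1 was the difference between the responses of Col-0 and ein3eil1. It was called for 5 of 6 genes, 4 higher and 1 lower, where 4.58% of loci were called higher and 7.64% lower. The difference was 1.60 ± 0.19 for GH3.2 (adjusted p = 1.6e-05, edgeR), 1.54 for GH3.5 (adjusted p = 3.5e-06) and 0.75 for GH3.6 (adjusted p = 0.0012), all on the log2 scale. For GH3.17 it was -1.84 (adjusted p = 5.7e-06). For GH3.3 it was 0.94 ± 0.25 (adjusted p = 0.019), a call that was lost without replicate 2 of treated Col-0 (0.91, adjusted p = 0.052) or of treated ein3eil1 (0.83, adjusted p = 0.086), or without replicate 1 of untreated Col-0 (0.73, adjusted p = 0.092) or of untreated ein3eil1 (0.84, adjusted p = 0.089). GH3.1, at -0.18 (-0.73 to 0.37, adjusted p = 0.74), was not called.

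The same difference in roots without RHD6 and RSL1, rhd6rsl1 minus the quadruple mutant, was called for the same 5 genes, again 4 higher and 1 lower, where 6.89% of loci were called higher and 10.9% lower. It measured 1.85 ± 0.18 for GH3.2 (adjusted p = 1.1e-06, edgeR), 1.35 for GH3.3 (adjusted p = 0.00085), 1.72 for GH3.5 (adjusted p = 5.1e-07) and 1.19 for GH3.6 (adjusted p = 9.3e-06). For GH3.17 it was -2.59 ± 0.20 (adjusted p = 7.4e-08). GH3.1 stood at 0.08 (-0.45 to 0.62, adjusted p = 0.86).

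Whether the dependence on EIN3 and EIL1 itself differed between roots with and without RHD6 and RSL1 was asked by the three-way difference. It was called for 0 of 6 genes by edgeR and 0 by DESeq2, where 0.305% of loci were called, and 2 of the 6 were below an unadjusted p of 0.05. These were GH3.6, at -0.43 (-0.85 to -0.02, unadjusted p = 0.041, adjusted p = 0.84), and GH3.17, at 0.75 (0.16 to 1.34, unadjusted p = 0.016, adjusted p = 0.66). The other 4 lay between -0.40 and -0.18, and the widest of the 6 intervals ran from -1.03 to 0.50, for GH3.1.

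**Figure D3:**
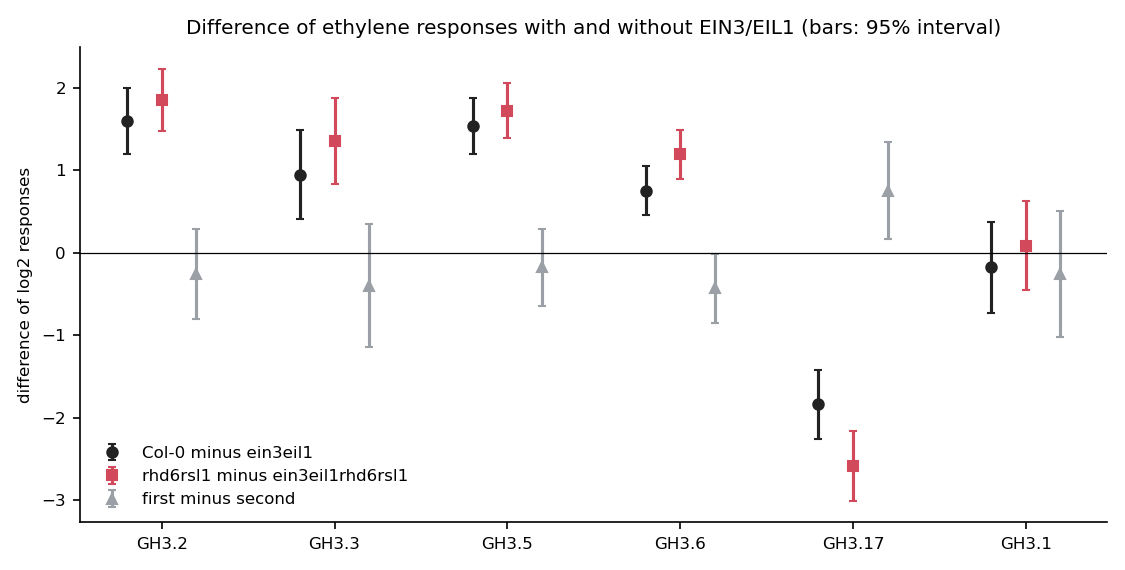
Difference between the ethylene responses with and without EIN3 and EIL1, on the log2 scale, for 6 GH3 genes with RHD6 and RSL1 (Col-0 minus ein3eil1, circles) and without them (rhd6rsl1 minus ein3eil1rhd6rsl1, squares), and the first minus the second (triangles), with bars for the 95% interval. The 2 differences lie on the same side of 0 for GH3.2, GH3.3, GH3.5, GH3.6 and GH3.17, from 0.75 to 1.85 for the first 4 and at -1.84 and -2.59 for GH3.17.

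Loss of EIN3 and EIL1 was also compared directly, within 1 treatment and 1 letter. In untreated roots 2 of 6 genes were lower in ein3eil1 than in Col-0 and 0 higher, where 3.09% of loci were called lower and 2.54% higher. These were GH3.2 at -0.67 ± 0.14 (adjusted p = 0.006, edgeR) and GH3.3 at -0.69 ± 0.18 (adjusted p = 0.031). Leaving out 1 untreated library of either genotype ended these calls in some cases, with 0 left without replicate 2 of Col-0 or of ein3eil1 and 1 left without replicate 1 of either. In untreated roots without RHD6 and RSL1 the same pair was lower in the quadruple mutant than in rhd6rsl1, GH3.2 at -0.56 (adjusted p = 0.015) and GH3.3 at -0.96 (adjusted p = 0.0033), where 2.37% of loci were called lower and 1.95% higher, with 0 called without replicate 2 of the untreated quadruple mutant and 1 without replicate 2 of untreated rhd6rsl1. Under ethylene, 4 genes were lower and GH3.17 was higher in ein3eil1 than in Col-0, where 11.2% of loci were called lower and 14.1% higher. GH3.2 stood at -2.26, GH3.5 at -1.73, GH3.3 at -1.64, GH3.6 at -0.78 and GH3.17 at 1.95 in that comparison. In the treated quadruple mutant against treated rhd6rsl1 the values of the 4 lower genes were -2.42, -1.82, -2.31 and -1.20 in the same order, and GH3.17 was again the only one higher, where 13.1% of loci were called lower and 17.9% higher. GH3.17 therefore read 8.01-fold higher in the treated quadruple mutant than in treated rhd6rsl1.

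Some of these genes were higher in roots that had lost RHD6 and RSL1. Averaged over both treatments, rhd6rsl1 exceeded Col-0 for 4 of 6 genes, with 0 lower, where 10.8% of loci were called higher and 11.5% lower. GH3.2 stood out among them, higher by 1.36 ± 0.091 on the log2 scale (adjusted p = 3.1e-09, edgeR), and all 4 of its rhd6rsl1 libraries exceeded the Col-0 libraries of the same treatment. GH3.3 was higher by 0.62 (adjusted p = 0.00091), GH3.1 by 0.53 (adjusted p = 0.0062) and GH3.5 by 0.49 (adjusted p = 0.00014). In untreated roots the GH3.1 means were alike, at 6.83 CPM in rhd6rsl1 and 6.87 CPM in Col-0, against 9.09 and 4.34 CPM under ethylene. For GH3.5 they were 26.1 and 22.7 CPM untreated and 119 and 68.8 CPM under ethylene. Within 1 treatment these 2 genotypes differ in letter. In the average, GH3.6 at 0.02 (-0.13 to 0.16) and GH3.17 at -0.10 (-0.31 to 0.11) were not called.

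The matching comparison without EIN3 and EIL1, the quadruple mutant against ein3eil1, gave 3 genes higher and 0 lower, where 11.7% of loci were called higher and 10.8% lower. GH3.2 was higher by 1.34 ± 0.095 (adjusted p = 9.3e-09, edgeR) and GH3.5 by 0.50 (adjusted p = 0.00022), and their 4 quadruple mutant libraries lay above all 4 of ein3eil1. GH3.17 was higher by 0.58 (adjusted p = 0.0003), with 126 to 185 CPM in the quadruple mutant and 96.1 to 115 CPM in ein3eil1. GH3.3 stood at 0.15 (-0.13 to 0.43), GH3.1 at 0.14 (-0.13 to 0.41) and GH3.6 at -0.19 (-0.34 to -0.04, adjusted p = 0.065). Whether the effect of rhd6rsl1 on GH3.17 or GH3.3 differed with the state of EIN3 and EIL1 was not tested.

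Markers of other tissues moved with some of these groups. Summed lateral root primordium markers (LBD16, LBD18, LBD29 and PUCHI, 4 genes, with 0 of 4 at 0 reads in any library) lay at 35.2 and 38.1 CPM in ethylene-treated rhd6rsl1, the group with the highest GH3.2, GH3.3, GH3.5 and GH3.6, and at 24 CPM in both libraries of the treated quadruple mutant. They lay at 19.3 and 19.7 CPM in treated Col-0 and at 13.1 to 16.9 CPM in the other 5 groups. The members went apart in Col-0, where ethylene raised 1 and lowered 1 of the 4 (13.7% and 15.9% of all loci), with a median log2 fold change of 0.06. In rhd6rsl1 4 of 4 were called higher, where 39.5% of loci were called in either direction. In the quadruple mutant 3 were called higher, where 11.5% of loci were. Treated rhd6rsl1 and the treated quadruple mutant carry the letter Z, and treated Col-0 and ein3eil1 carry S. Averaged over Col-0 and rhd6rsl1, which balances the letter, 2 of the 4 were called higher (median 0.69), where 18.9% of loci were. Averaged over ein3eil1 and the quadruple mutant 0 were called (median 0.12), where 7.89% of loci were called in either direction. The part of the primordium markers in the GH3 levels was not tested. Root hair markers also moved in ethylene-treated rhd6rsl1, where 4 of the 5 were called higher and RHD2 lower than in untreated rhd6rsl1. The median log2 fold change of these markers was 5.77, and 39.5% of all loci were called in either direction. Their sum went from 46.9 and 45.0 to 130 and 137 CPM, EXPA7 from 0 and 0.0518 to 26.4 and 28.9 CPM, and PRP3 from 0.293 and 0.467 to 50.2 and 55.4 CPM. Ethylene also raised 3 of the 5 root hair markers in the quadruple mutant (median 0.96) and 2 in Col-0 (median 0.46). Over all loci, 11.5% were called higher in the quadruple mutant and 13.7% in Col-0. In ein3eil1 0 of the 5 were called, where 0.623% of loci were called in either direction. In the treated quadruple mutant PRP3 read 8.15 CPM in replicate 1 and 0.266 CPM in replicate 2. Of the 5 root markers, 4 were called lower with ethylene in Col-0 (median -0.69), where 15.9% of loci were called lower. Averaged over Col-0 and rhd6rsl1, the groups in which GH3.17 fell, 3 were, where 22.4% of loci were called lower. These were SHR at -0.55, WER at -0.78 and SMB at -0.67. SHR read 45.7 and 44.0 CPM in untreated and 26.4 and 27.1 CPM in treated Col-0. The part of these markers in the GH3 levels was not tested either.

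The GH3 values were also taken without the 2 libraries that had high shoot markers. Without replicate 1 of treated Col-0, the ethylene response of Col-0 was 1.99 for GH3.2, 1.37 for GH3.3, 1.70 for GH3.5, 0.89 for GH3.6 and -2.05 for GH3.17, all called, while GH3.1 at -0.46 was not. Without replicate 1 of the treated quadruple mutant, its response was 0.51 for GH3.5 (adjusted p = 0.017, edgeR) and 0.40 for GH3.17 (adjusted p = 0.12), and GH3.1 went from 0.33 to 0.23.

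Levels between genes can be compared only per length, so CPM were divided by the coding length in kb. GH3.17 alone among the members has 2 transcript models in the files, and their counts were summed. The second model held 36.5 and 37.4% of its reads in untreated Col-0. Whether reads that match both models were counted for each is not stated, so the level and share of GH3.17 could be overstated. In untreated Col-0, GH3.17 led with 52.2 CPM per kb, and GH3.2 at 13.1, GH3.6 at 12.8 and GH3.5 at 12.3 CPM per kb followed, of which GH3.5, at 13.4 and 11.4 CPM per kb in its libraries, overlapped both others. GH3.3 at 4.24 and GH3.1 at 3.87 CPM per kb also overlapped. GH3.17 alone made up 54.6 and 51.2% of the summed level of the family members in untreated Col-0, and 13.4 and 8.85% after ethylene, when GH3.2 took 36.5 and 36.7% and GH3.5 25.5 and 28.2%. In rhd6rsl1 the share of GH3.17 went from 44.6 and 43.6% to 5.63 and 4.47%, and that of GH3.2 from 27.6 and 29.3% to 46.7 and 50.7%. In ein3eil1 and the quadruple mutant GH3.17 held 56.8 to 62.8% of the sum in all 8 libraries. The sum itself was 102 and 95.1 CPM per kb in untreated and 137 and 141 in treated Col-0, 126 and 132 against 227 and 266 in rhd6rsl1, 90.5 and 98.3 against 107 and 94.3 in ein3eil1, and 142 and 121 against 154 and 163 in the quadruple mutant.

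**Figure D4:**
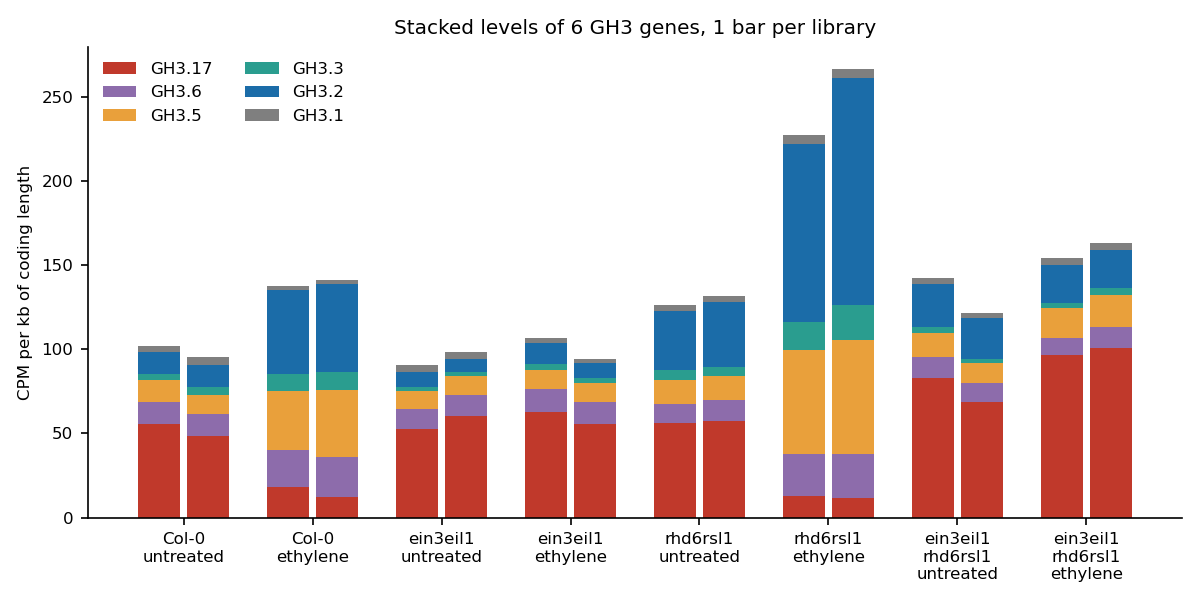
Stacked levels of 6 GH3 genes in CPM per kb of coding length (linear axis from 0), with 1 bar for each of the 16 libraries in 8 groups. With the counts of its 2 transcript models summed, GH3.17 makes up most of each bar without EIN3 and EIL1 and in untreated Col-0. GH3.2 and GH3.5 make up most of the bars of ethylene-treated Col-0 and rhd6rsl1, the latter with the highest sums at 227 and 266.

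Across the 16 libraries, which include the treated and untreated groups and so share those differences, the log2 levels of GH3.3 and GH3.5 ran together at a Pearson r of 0.93, GH3.2 and GH3.3 at 0.90 and GH3.5 and GH3.6 at 0.90. GH3.17 ran opposite to GH3.6 at -0.97, to GH3.3 at -0.89 and to GH3.5 at -0.85. GH3.1 was apart, with r between -0.03 and 0.25 to the other 5. Among 15542 loci with a mean of at least 5 CPM, the profile most like GH3.2 over the 16 libraries was that of the borate transporter gene BOR1 (r = 0.972), followed by the F-box gene AT2G36090 (0.969) and the purine permease gene PUP14 (0.967). For GH3.3 they were AT1G14040 (0.989), AT5G57710 (0.983) and the alcohol dehydrogenase family gene AT1G22440 (0.980), and for GH3.5 EDA40 (0.989), the cysteine synthase gene CYSC1 (0.986) and the acyltransferase family gene AT1G27620 (0.984). GH3.6 was most like the glycosyltransferase family gene AT5G53990 (0.969), MYB70 (0.967) and AT3G51410 (0.963). GH3.17 was most like AT1G64380 (0.985), AT1G30280 (0.984) and the bHLH gene AT4G37850 (0.983), and GH3.1 was most like GLDP2, RS40 and AT5G03140, at only 0.872 to 0.885.

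Of the 12 other GH3 loci 8 were tested, and ethylene in Col-0 raised 2 and lowered 2 of them (13.7% and 15.9% of all loci), with a median log2 fold change of -0.03. In rhd6rsl1 it raised 3 and lowered 1 (39.5% of loci in either direction). GH3.15, whose enzyme acts on the auxin precursor indole-3-butyric acid, rose by 1.11 ± 0.19 (adjusted p = 0.00026, edgeR) from 3.32 ± 0.209 to 7.16 ± 1.13 CPM (SD, n = 2), and its response differed between Col-0 and ein3eil1 by 1.18 (adjusted p = 0.0076). Averaged over Col-0 and rhd6rsl1, which balances the letter, GH3.15 rose by 1.21, GH3.8 rose by 0.69 and GH3.7 fell by 0.94 on the log2 scale. JAR1, which makes the active jasmonate conjugate, fell by 0.22 in Col-0, with an average of -0.10 that was not called (adjusted p = 0.18).

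Genes that act on the same pool of IAA were read alongside. Among 5 tested genes of IAA oxidation, methylation and glucosylation, 0 rose and 2 fell with ethylene in Col-0, and 2 rose and 2 fell in rhd6rsl1. Over all loci, 13.7% were called higher and 15.9% lower in Col-0, and 39.5% in either direction in rhd6rsl1. IAMT1, the IAA methyltransferase gene, had a pattern like that of GH3.17, with 17.5 ± 1.42 CPM untreated and 3.67 ± 0.110 CPM after ethylene in Col-0, and 19.7 ± 0.289 against 3.01 ± 0.251 CPM in rhd6rsl1 (SD, n = 2). In ein3eil1 it read 13.1 ± 1.68 against 17.4 ± 1.93 CPM and in the quadruple mutant 19.3 ± 0.783 against 19.4 ± 2.56 CPM. Its fall of 2.25 on the log2 scale in Col-0 (adjusted p = 1.9e-09, edgeR) differed from ein3eil1 by -2.66 (adjusted p = 3.8e-08), and the response of rhd6rsl1 differed from that of the quadruple mutant by -2.72 (adjusted p = 2.0e-08). Among glucosyltransferase genes, UGT74D1 fell by 0.29 in Col-0 and rose by 0.34 in rhd6rsl1, with an average of 0.02 (adjusted p = 0.82). UGT74E2 stood at -0.23 in Col-0 (adjusted p = 0.26) and at 0.22 in ein3eil1 (adjusted p = 0.54). It rose by 1.36 in rhd6rsl1 and by 0.87 in the quadruple mutant. The treated libraries carry S in Col-0 and ein3eil1 and Z in rhd6rsl1 and the quadruple mutant. For UGT74E2, the difference between these pairs of genotypes therefore cannot be told apart from the letter. For the oxidase gene DAO2 the responses of rhd6rsl1 and the quadruple mutant differed by -1.56 (adjusted p = 0.018, edgeR). Its levels in rhd6rsl1 were low, at 3.96 and 1.76 CPM untreated and 1.08 and 1.07 CPM after ethylene. Treated or not, DAO2 had group means of 16.5 to 21.1 CPM without functional EIN3 and EIL1 and of 1.08 to 2.86 CPM with them.

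Of 6 tested genes for hydrolases that release IAA from its amino acid conjugates, 1 rose and 1 fell in Col-0. Over all loci, 13.7% were called higher there and 15.9% lower. IAR3 rose by 0.30 and ILL6 fell by 0.79 on the log2 scale, and the other 4 were not called. Averaged over Col-0 and rhd6rsl1 the values were 0.23 and -0.78, both called. For ILL6 the response differed between Col-0 and ein3eil1 by -0.99 (adjusted p = 0.0048, edgeR). Among 11 tested genes of IAA synthesis, 4 rose and 2 fell in Col-0, against the same shares of all loci. YUC9, a flavin monooxygenase gene of the last step, rose by 1.26 (adjusted p = 9.6e-06), from 5.16 and 4.42 to 10.4 and 12.6 CPM, followed by YUC8 at 0.82, the aminotransferase gene TAR2 at 0.76 and the anthranilate synthase gene ASA1 at 0.58, with averages over Col-0 and rhd6rsl1 of 1.35, 0.68, 0.71 and 0.63, and the responses of all 4 were larger in Col-0 than in ein3eil1 by a tested difference, at 1.05, 0.89, 0.85 and 0.58 in the same order.

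On the response side, all 7 of the auxin-induced Aux/IAA genes listed, which encode repressors of ARF proteins, rose with ethylene in Col-0. Over all loci, 13.7% were called higher there. The list holds IAA1, IAA2, IAA3, IAA5, IAA6, IAA19 and IAA29, and its median log2 fold change was 2.16. IAA5 rose by 4.93 ± 0.60, IAA6 by 3.45, IAA1 by 2.56 and IAA29 by 2.16. Between Col-0 and ein3eil1 6 of the 7 responses differed, where 4.58% of loci were called higher and 7.64% lower. Between rhd6rsl1 and the quadruple mutant 7 of the 7 did, where 6.89% of loci were called higher and 10.9% lower. Of the 5 activator ARF genes, 1 was called higher in Col-0, 2 in rhd6rsl1 and 3 in the quadruple mutant, and 0 in either difference of responses. Over all loci, 13.7% were called higher in Col-0 and 11.5% in the quadruple mutant, and 39.5% in either direction in rhd6rsl1. ARF19 rose by 0.58 in Col-0 (adjusted p = 0.011, edgeR), by 1.24 in rhd6rsl1 and by 0.99 in the quadruple mutant (adjusted p = 0.0005). Of the 6 receptor genes, 1 was called lower in Col-0, 2 in rhd6rsl1 and 2 in the quadruple mutant. Over all loci, 15.9% were called lower in Col-0 and 12.4% in the quadruple mutant, and 39.5% in either direction in rhd6rsl1. The receptor count in Col-0 was thus near the share of all loci. AFB1 fell by 0.58 in Col-0 (adjusted p = 0.00046), by 0.99 in rhd6rsl1 and by 0.47 in the quadruple mutant, and its response differed by -0.70 between Col-0 and ein3eil1 and by -0.52 between rhd6rsl1 and the quadruple mutant.

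**Figure D5:**
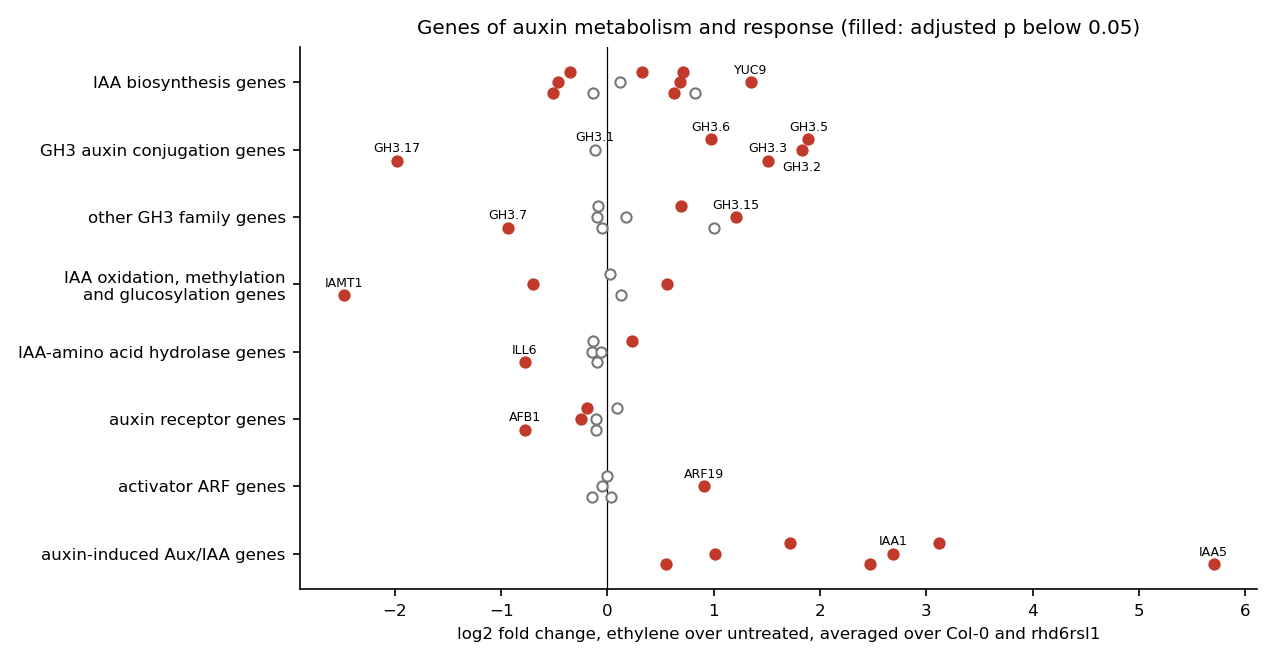
Log2 fold change of ethylene over untreated roots averaged over Col-0 and rhd6rsl1 (x axis, edgeR) for each tested gene in 8 lists of auxin metabolism and response (rows), with filled points for an adjusted p below 0.05 and open points for the rest, and vertical offsets only to separate points. GH3.17 at -1.98 and IAMT1 at -2.48 lie at the left, and GH3.2 at 1.83, GH3.5 at 1.89 and all 7 Aux/IAA genes lie to the right.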

How the data were processed

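PolyA RNA from roots was sequenced in 16 libraries of 8 groups. Per the submitters' processing notes, BWA 0.7.7 and the build TAIR10 were used. Per the file headers, the deposited files hold a read count, a length and an RPKM value for each of 39640 transcript models; each count column summed to its header total. RPKM, which the authors deposited on those lengths, was not used. The counter, the strand setting and the treatment of shared reads are not stated in the sources used here. Counts of the models were summed to 33518 loci. filterByExpr left 22304, TMM scaled the libraries, and edgeR 4.0.16 (quasi-likelihood F test, 8 group means) tested 15 contrasts in R 4.3.3, with Benjamini-Hochberg adjustment over the loci tested and a call at an adjusted p below 0.05. Standard errors were taken as the size of the log2 fold change divided by the root of F, and intervals are at 95%. All adjusted p-values are edgeR's, and DESeq2 1.42.0 was an alternative. The tests were checked on simulated counts. Alternatives were other scalings, no filter, a replicate block, the groups alone, the first transcript model, and leaving out each library. Correlations used log2 CPM with a prior count of 2.

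Named were the 7 members, the mutated genes, up to 4 called genes of each other list in Col-0 and up to 2 in the differences, and the 3 most similar loci per member. Members and lists were chosen with earlier results of these data known. Coordinates and sequences are from RefSeq TAIR10.1, matched by locus, since the files hold no coordinates, and its gene ends can differ from the models counted.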

Additional observations from a re-analysis of the deposited data

Results flagged for a closer look

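Between Col-0 and ein3eil1 the ethylene response differed, by a test of the difference itself (edgeR, 2 libraries per group), for 5 genes. On the log2 scale it was larger in Col-0 by 1.60 for GH3.2, 0.94 for GH3.3, 1.54 for GH3.5 and 0.75 for GH3.6, and for GH3.17 the difference was -1.84. Between rhd6rsl1 and the quadruple mutant the same test gave 1.85 for GH3.2, 1.35 for GH3.3, 1.72 for GH3.5, 1.19 for GH3.6 and -2.59 for GH3.17. An additive effect of the letters S and Z in the file codes cancels in both differences.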

How the results depend on the processing

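The number of GH3 genes called moved by more than 1.5 times in 5 of the 15 comparisons, all of them with 2 or fewer genes called. For ethylene in the quadruple mutant, 1 gene was called, against 2 with DESeq2, with RLE size factors, without scaling, without the low count filter, with replicate number as a block and with the first transcript model alone, 0 with the groups fitted alone, and 0 to 3 when 1 library was left out. The added gene under the replicate block was GH3.17 at 0.39 (adjusted p = 0.038), and the other 89 gene values kept their side of the threshold there. Apart from that block, the replicate numbers were not used to pair the samples. Deviations of same-numbered libraries correlated at -0.08 to 0.21 over 28 pairs of groups, with 2 over 0.1. Such values show no large shared shift but cannot tell whether same-numbered libraries were grown or prepared together. The three-way difference called 0, and 1 without the filter. The response averaged over ein3eil1 and the quadruple mutant called 0, against 2 with DESeq2, 1 with RLE, 3 without the filter, 1 with the first model and 0 to 2 with a library left out. For ein3eil1 against Col-0 untreated the count of 2 ran from 0 to 2, and for the quadruple mutant against rhd6rsl1 untreated from 0 to 3, with a library left out.

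No called value changed sign. Values called in neither setting changed sign in 38 of 2070 cases, between -0.19 and 0.08. CPM on library totals were 0.977 to 1.05 times those on TMM sizes, which moved 4 of 56 group means by more than 1 SD. Depth limits GH3.4, with 8 reads over 16 libraries, to an upper bound.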
